A study of Mus musculus with 2 samples.

Results

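Pro-B and large pre-B cells, the early B lineage cells of mouse limb bone marrow, were picked out by their surrogate light chain genes, and 835 of the 9933 cells of the series belonged to them. A member's UMIs (unique molecular identifiers, 1 per captured transcript) summed to 5 or more over *Igll1* and *Vpreb1*. It also held at least 1 *Cd79a* UMI, and hemoglobin transcripts made up under 1% of its UMIs. In addition, 6 neutrophil transcripts (*Camp*, *Ngp*, *Ltf*, *Lcn2*, *S100a8*, *S100a9*) made up under 5% of its UMIs. The WT library gave 483 members of 6271 cells and the Cko library 352 of 3662, where a cell is a barcode with 200 or more genes. Since these UMIs chose the members, the levels of *Igll1*, *Vpreb1* and *Cd79a* below are a description.

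Both libraries were droplet (10x Genomics, 3′ kit version 2) libraries of marrow from crushed and collagenase-digested fore- and hindlimbs after red cell lysis, each from 1 mouse at postnatal day 21 on the C57BL6/J strain. The mouse called WT carried floxed alleles of *Mbtps1* (S1P f/f) without the Cre transgene. The mouse called S1P Cko carried the same alleles with *Osx1-GFP::Cre*, in which the Osterix promoter drives Cre and exon 2 is removed in the Osterix lineage. S1P is site-1 protease, which cuts membrane-bound transcription factors such as the SREBPs and ATF6 in the Golgi. B lineage cells are not the lineage that the Cre was made to reach. The paper, however, proposes that the Cre is also active in haematopoietic cells, and reports exon 2 loss in sorted neutrophils of every Cko mouse examined. Whether B lineage cells lost exon 2 was not tested. A 3′ tag lies outside exon 2, so *Mbtps1* UMIs check neither label. With 1 mouse and 1 library per genotype there is no replicate spread and no test was made, and every interval given is a 95% interval for counting error only. The mice also differed in sex-linked transcripts. *Xist* was listed in the Cko library alone, in 351 of 352 members, while *Eif2s3y* was listed in the WT library alone, in 179 of 483 members. Genotype, sex, mouse and library therefore cannot be told apart in any Cko to WT ratio.

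A B cell precursor first rearranges its heavy chain gene as a pro-B cell, with the RAG recombinase cutting and terminal transferase, encoded by *Dntt*, adding bases at the joints. Once a heavy chain is made, it pairs with the surrogate light chain, whose parts are lambda 5 (*Igll1*) and VpreB (*Vpreb1*, *Vpreb2*), and with the signalling chains CD79a and CD79b to form the pre-B cell receptor. Signals from that receptor and from the interleukin-7 receptor drive a burst of division in large pre-B cells, after which the surrogate light chain is silenced and the kappa light chain gene (*Igkc*) is rearranged in small pre-B cells. EBF1 and E2A switch on the surrogate light chain genes and *Cd79a*.

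The genes of the rule lie at 2 places. *Igll1* (chr16:16860671-16863985, minus strand) and *Vpreb1* (chr16:16868403-16870843, minus strand) are neighbours, *Vpreb2* lies further along at chr16:17980428-17981273 on the plus strand, and *Cd79a* is at chr7:24897381-24902197 on the plus strand (GRCm38, GENCODE vM21). The 250 bases before the RefSeq start of each (GRCm38.p6) are shown because the first 2 and the last define the cells and the third is the near-copy of *Vpreb1*. Capitals mark CAGGTG on either strand, an E box of the kind that E2A binds.
Igll1: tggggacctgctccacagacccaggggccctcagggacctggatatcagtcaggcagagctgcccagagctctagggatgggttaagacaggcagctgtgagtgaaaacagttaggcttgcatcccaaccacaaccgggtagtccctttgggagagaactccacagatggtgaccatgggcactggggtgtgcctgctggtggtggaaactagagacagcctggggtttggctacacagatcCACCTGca
Vpreb1: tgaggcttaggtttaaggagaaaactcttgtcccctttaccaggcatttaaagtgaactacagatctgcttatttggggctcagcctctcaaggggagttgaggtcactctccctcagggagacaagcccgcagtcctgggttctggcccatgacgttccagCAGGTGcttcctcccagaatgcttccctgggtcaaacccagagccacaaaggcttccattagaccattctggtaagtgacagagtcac
Vpreb2: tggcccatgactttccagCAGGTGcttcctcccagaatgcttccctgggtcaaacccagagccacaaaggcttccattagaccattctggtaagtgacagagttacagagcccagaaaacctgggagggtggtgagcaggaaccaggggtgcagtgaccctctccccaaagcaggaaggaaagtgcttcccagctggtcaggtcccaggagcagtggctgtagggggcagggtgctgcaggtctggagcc
Cd79a: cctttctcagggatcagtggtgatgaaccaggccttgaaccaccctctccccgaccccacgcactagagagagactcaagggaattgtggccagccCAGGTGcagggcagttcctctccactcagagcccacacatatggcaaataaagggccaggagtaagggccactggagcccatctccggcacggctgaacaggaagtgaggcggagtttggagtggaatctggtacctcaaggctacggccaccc
These stretches are chr16:16863986-16864235 (minus strand) for *Igll1*, chr16:16869256-16869505 (minus strand) for *Vpreb1*, chr16:17980315-17980564 (plus strand) for *Vpreb2* and chr7:24897247-24897496 (plus strand) for *Cd79a*. By the GENCODE positions the *Vpreb1* stretch lies inside the gene, and those of *Vpreb2* and *Cd79a* overlap theirs. Each stretch held 1 match, and those of *Vpreb1* and *Vpreb2* are the same place in the 2 near-copies, at a shift of 144 bases. The match began 8 bases before the RefSeq start in *Igll1*, 88 in *Vpreb1*, 232 in *Vpreb2* and 154 in *Cd79a*. Of 32851 mouse promoter windows of 300 bases (250 before and 50 after the start), 20.2% held the same letters on either strand. The windows of *Vpreb3*, *Ebf1* and *Myl4* held none. The letters CCCNNGGG, the core that EBF1 binds, were found on either strand in 13.7% of windows and, among these genes, only in *Igll1*, 231 bases before the start and apart from the CAGGTG match. The *Vpreb1* and *Vpreb2* windows overlapped without gaps over 156 bases, 153 of them the same (98.1%), and 3′ reads of these near-copies may be split between them, so each of the pair is uncertain on its own. A match is a run of letters and shows no binding.

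Members held 3082 to 24496 UMIs in WT, with a median of 7712, and 3293 to 31100 in Cko, with a median of 10155.5. The median number of genes was 1955 in WT and 2145.5 in Cko, and mitochondrial transcripts made up a median of 3.16% and 2.90% of the UMIs. Cko members were thus the deeper ones, so levels are given as CPM, the summed UMIs of a gene per 1000000 UMIs of the members. The sums behind them were 4097908 UMIs in WT and 3955172 in Cko. The whole libraries held 56382459 and 34447224 UMIs, listed 7181 and 6735 genes, shared 6001 of them, and shared 28 barcodes, of which 0 were members. Doublet calling on all cells marked 7 WT and 3 Cko members.

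*Vpreb3*, which encodes a chaperone-like relative of VpreB, was found in all 483 WT members and all 352 Cko members at 1977 and 1949 CPM. Cells with a neutrophil signature and no *Cd79a*, which should lack it, gave 20.1 CPM in WT and 9.41 in Cko. *Ebf1*, the B lineage factor at chr11:44617317-45008091, stood at 2195 and 2166 CPM against 12.9 and 6.91 in the neutrophil-signature cells. *Myl4*, a myosin light chain gene at chr11:104550663-104595753, was at 470.5 CPM in WT and 335.3 in Cko against 3.52 and 1.20. All 3 markers that the rule did not use were therefore far above the free RNA level, and *Myl4* was found in 70.6% of WT and 68.8% of Cko members where the other 2 were nearly universal. *Pax5* and *Il2ra*, further genes of these stages, were listed in neither table and give no value.

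Across members the sum of *Igll1* and *Vpreb1* ran from 5 to 86 UMIs in WT with a median of 22, and from 5 to 129 in Cko with a median of 32. Scaled to each cell's depth, the medians were 25.5 and 27.7 per 10000 UMIs. The limit of 5 UMIs did not fall in a gap. Cells of the same gate with 3 or 4 UMIs numbered 46 in WT and 37 in Cko, and those with 5 to 7 UMIs numbered 38 and 25. Their median *Vpreb3* was 14.5 and 21 UMIs just outside the limit and 17.5 and 20 just inside it, and their median *Ebf1* was 14.5 and 14 outside and 14 and 17 inside. Hemoglobin above the limit removed 33 WT and 3 Cko cells that met the other terms, and the neutrophil transcripts removed 9 in each.

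How large the early B compartment was depended on what it was counted against. Members made up 7.70% of all WT cells (exact binomial interval 7.05 to 8.39) and 9.61% of all Cko cells (8.68 to 10.6), a Cko to WT ratio of 1.25 (1.08 to 1.43). Among cells with hemoglobin under 1%, numbering 3126 in WT and 3177 in Cko, the shares were 15.5% and 11.1%, a ratio of 0.717 (0.623 to 0.824). The 2 denominators put the libraries in opposite order, since 6271 WT cells and 3662 Cko cells shrank to nearly equal numbers when red cell-rich barcodes were left out. Within the B lineage the shares were close. Members were 52.0% of the 928 WT and 52.4% of the 672 Cko cells with *Cd79a* under the same limits, a ratio of 1.01 (0.875 to 1.16). The share of barcodes rich in hemoglobin differed between the libraries, and its part in these shares was not tested. Cells with a neutrophil signature and no *Cd79a*, at any hemoglobin level, numbered 865 in WT and 1304 in Cko. Their part in these shares was not tested either.

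**Figure D1:**
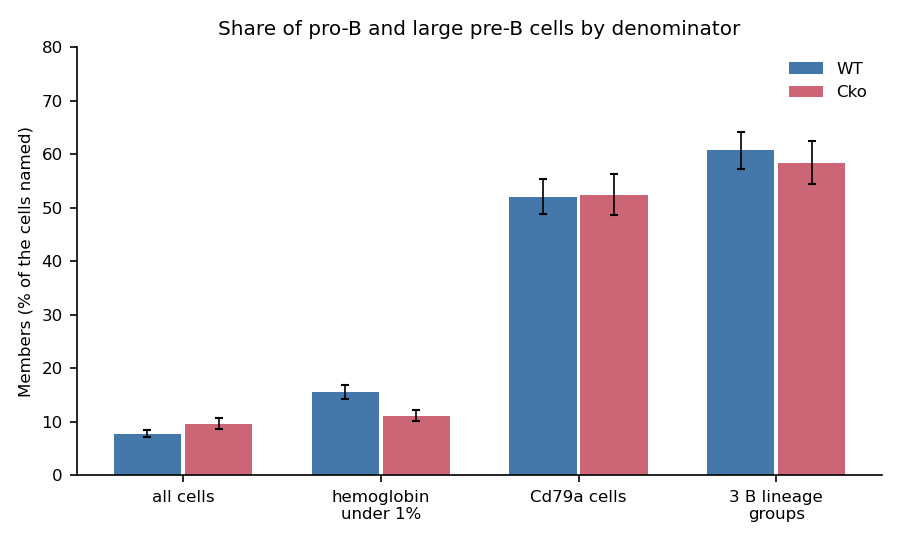
Members as a percentage of 4 sets of cells in WT and Cko, with exact 95% binomial intervals for counting error (1 library per genotype). Cko is the higher of the pair over all cells (9.61% against 7.70%) and the lower over cells with hemoglobin under 1% (11.1% against 15.5%), and the pair is close over *Cd79a* cells (52.4% against 52.0%).

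To place the members along B cell development, they were set beside 2 other B lineage groups of the same libraries. Surrogate light chain-low cells held 3 or more *Cd79a* UMIs, under 5 UMIs of *Igll1* plus *Vpreb1* and no *Ms4a1* (273 cells in WT, 193 in Cko), and *Ms4a1* cells held that gene of more mature B cells (39 in WT, 58 in Cko). Of the 3 groups together the members were 60.8% in WT and 58.4% in Cko, and the *Ms4a1* cells 4.91% and 9.62%. Low cells were shallower than members, with medians of 4185 and 4738 UMIs. Mixed barcodes with 10 or more UMIs of granulocyte progenitor and monocyte genes made up 20 of 273 and 12 of 193 low cells, 7 of 39 and 15 of 58 *Ms4a1* cells and 15 of 483 and 6 of 352 members. Granulocyte progenitor markers summed to 2778 CPM in WT and 11051 in Cko *Ms4a1* cells, against 373 and 111.5 in members, and values that rest on these barcodes are given with and without them. Of 4018 genes with enough UMIs to be counted (100 or more over the groups compared), 605 (15.1%) differed by 1.5-fold or more the same way in both libraries, 290 higher in members (7.22%) and 315 lower (7.84%).

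A few genes were much higher in members than in low cells. *Ccnd2*, the cyclin D2 gene that carries receptor signals into the cycle, was at 221 CPM in WT members and 21.4 in WT low cells, and at 264 and 22.2 in Cko. That was 10.3-fold (7.26 to 15.2) and 11.9-fold (7.89 to 18.9), and 13.2-fold and 19.1-fold without the mixed barcodes. The *Ms4a1* cells held 187 and 152 CPM, or 219 and 183 without theirs. *Dntt* was 15.4-fold higher in WT and 4.90-fold in Cko, or 13.6-fold and 8.64-fold without the mixed barcodes. *Shmt1*, which feeds one-carbon units to nucleotide synthesis, was 5.30-fold and 7.07-fold higher, *Myc*, a driver of cell growth, 3.98-fold and 6.25-fold (4.04-fold and 9.93-fold without the mixed barcodes), and *Fam136a* 5.61-fold and 6.20-fold. *Vpreb2* had 203 UMIs in WT members and 0 in WT low cells, and 99.1 against 7.72 CPM in Cko (12.8-fold, 6.45 to 29.9). The rule did not name *Vpreb2*, but its reads may be split with the rule gene *Vpreb1*, so its level is not independent of the rule. *Bok*, a member of the BCL2 family, had 2 UMIs in WT low cells (19.3-fold, 5.22 to 162) and 0 in Cko low cells, against 106 and 132 UMIs in members. The highest folds beside these were those of the rule genes, *Vpreb1* (21.0-fold and 14.5-fold) and *Igll1* (15.1-fold and 14.4-fold), and of *Srfbp1* and *Phldb3*. *Lef1*, *Socs2*, *Bcl11a* and *Cdk6* were higher in members by 2.19-fold to 3.71-fold in both libraries. Of 13 large pre-B stage genes 5 were higher in members and 0 lower, or 1 lower without the mixed barcodes. *Vpreb2*, whose level is not independent of the rule, was among the 5, so this count is a description. Pro-B stage genes as a list were not higher in members. Of 9 counted 2 were higher and 3 lower, with median folds of 0.719 in WT and 0.611 in Cko. The counts were 3 higher and 1 lower without the mixed barcodes. Of 5 V(D)J recombination genes 1 was higher and 2 lower. *Nrgn*, neurogranin, a calmodulin-binding protein, was at 168 against 47.5 CPM in WT and 97.1 against 23.2 in Cko.

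Genes of later stages were lower in members. *Igkc* stood at 81.7 CPM in WT members, 3461 in low cells and 10129 in *Ms4a1* cells, and at 115, 773 and 2187 in Cko. The order of the 3 groups was the same in both libraries. Without the mixed barcodes the *Ms4a1* cells held 2775 and 2937 CPM, and the members' fold over low cells went from 0.0236 to 0.0649 in WT and from 0.149 to 0.142 in Cko. *Ighm*, the mu heavy chain constant gene, was at 414 and 362 CPM in members against 2357 and 545 in low cells, a fold of 0.175 and 0.663 that was 0.319 and 0.622 without the mixed barcodes. *Cd74* and *H2-Aa*, of MHC class II presentation, were at 32.5 and 26.1 CPM in WT members against 318 and 191 in low cells, and at 54.4 and 34.4 against 397 and 276 in Cko. The Cko fold of *Cd74* was 0.137, or 0.222 without the mixed barcodes. *Klf2*, a quiescence factor of lymphocytes, was at 54.9 and 43.2 CPM against 326 and 338. *Spib*, *Syk*, *Dok3*, *Ly6d* and *Btg1* were also lower, at 0.190 to 0.450 of the low-cell level. Of the 11 small pre-B and later stage genes counted, 9 were lower in members and 0 higher, with median folds of 0.237 and 0.211, where the median over all genes was 0.989 and 0.980. Granulocyte progenitor markers were also lower, all 5 of 5, including *Prtn3*, *Ctsg* and *Ms4a3*, and the mixed low cells held 95.7% of these UMIs in WT low cells and 96.5% in Cko. Without the mixed barcodes, which are chosen on these genes, 0 of the 5 were lower, while the count of later stage genes was again 9.

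Other genes of the lineage were nearly level between members and low cells or higher in the low cells. *Ebf1* was at 2416 and 2658 CPM in the low cells, *Vpreb3* at 2716 and 3576, *Myl4* at 788 and 728, and *Il7r*, the interleukin-7 receptor chain, at 159.9 and 257 against 108 in members of either library. Of 17 pre-B receptor signalling genes 2 were higher in members and 7 lower, and of 18 B lineage transcription factors 3 were higher and 8 lower. Of 49 G2 and M phase genes 11 were lower and 0 higher in members (19 lower without the mixed barcodes), and of 36 S phase genes 2 were higher and 0 lower (3 lower without them). Per 10000 UMIs of a cell, S, G2 and M phase genes together had a median of 183 in WT members against 279 in low cells, and of 168 against 270.0 in Cko. *Myl4*, which had been given as a marker of the members, was thus at 0.597 and 0.461 of the low-cell level. The markers *Vpreb3*, *Ebf1* and *Myl4* mark the early B lineage here and do not set the members apart from the low cells.

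**Figure D2:**
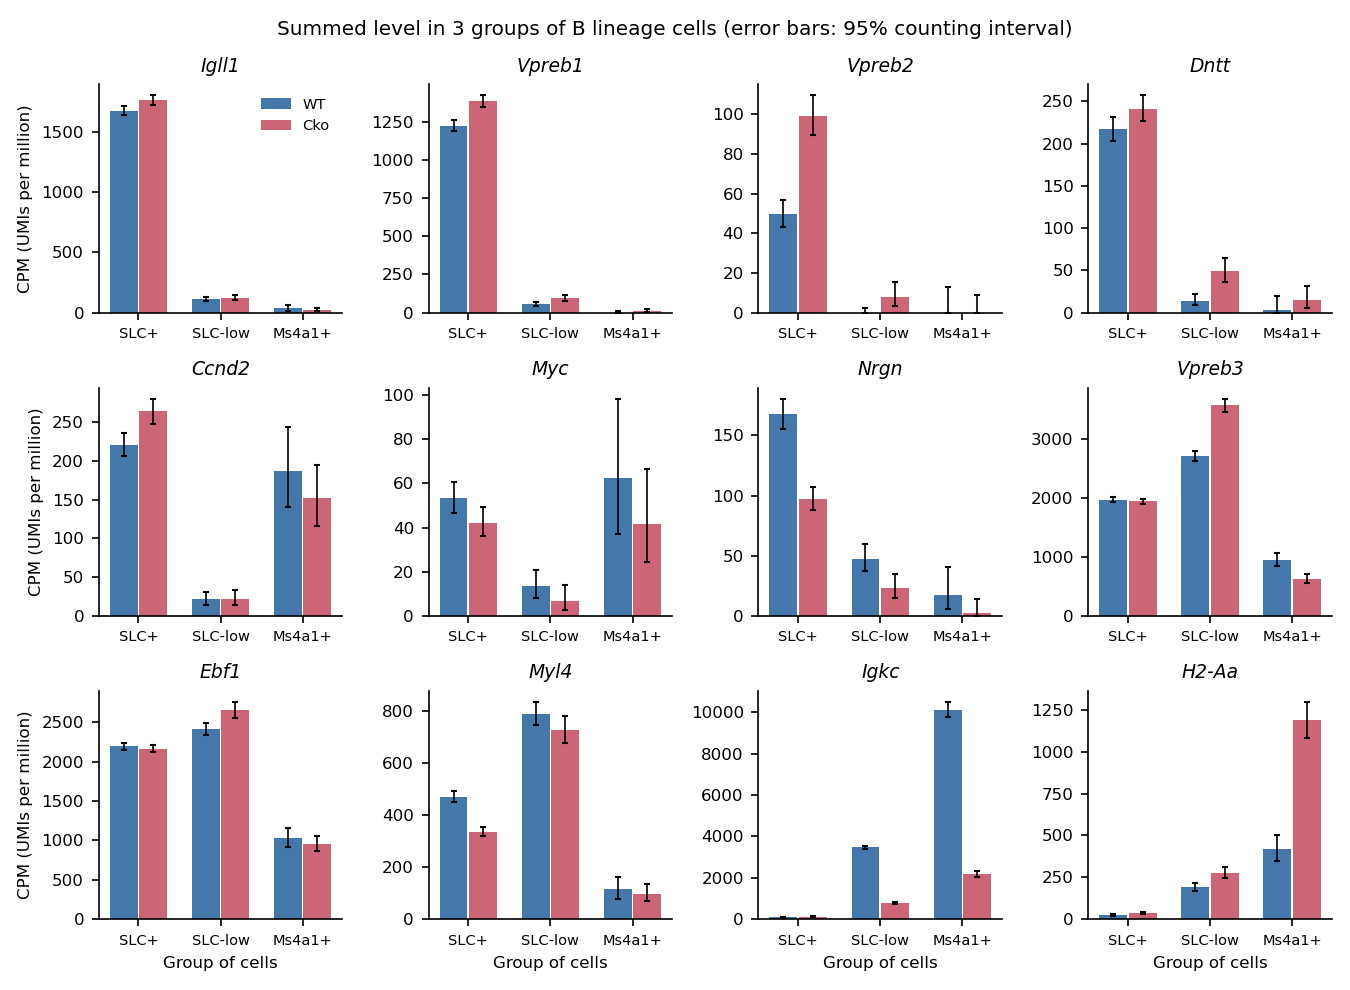
CPM of 12 genes (linear axes from 0) in members (SLC+), surrogate light chain-low cells (SLC-low) and *Ms4a1* cells (Ms4a1+) of the WT and Cko libraries, with exact 95% Poisson intervals for counting error. *Igll1*, *Vpreb1*, *Vpreb2*, *Dntt* and *Nrgn* are highest in members, *Ccnd2* is low in the SLC-low cells alone, and *Igkc* goes from 81.7 to 3461 to 10129 CPM in WT and from 115 to 773 to 2187 in Cko.

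The members were not uniform, and *Dntt* divided them. Terminal transferase marks pro-B cells, and *Dntt* UMIs were found in 145 of 483 WT members (30.0%, 26.0 to 34.3) and 120 of 352 Cko members (34.1%, 29.1 to 39.3). With each cell thinned to 3000 UMIs the shares were 25.5% and 29.5%. Neutrophil-signature cells, with median depths of 6829 and 6427.5 UMIs against 7712 and 10155.5 in members, had *Dntt* in 0.694% and 0.230%. Of the positive members, 108 in WT and 102 in Cko held 3 or more UMIs, and the highest cell held 25 and 32. Most cells with a UMI of this gene, which lies at chr19:41029275-41059525, thus held more than 1. The members with *Dntt* were shallower, with medians of 6021 and 8700.5 UMIs against 8349 and 10644.5 without it. Of 3507 genes counted, 205 (5.85%) differed by 1.5-fold or more the same way in both libraries, with *Dntt* itself among the 134 higher (3.82%), and 71 were lower (2.02%).

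The surrogate light chain was higher in the *Dntt* members. *Vpreb1* was at 2208 CPM with *Dntt* and 889 without in WT, and at 2297 and 979 in Cko, a fold of 2.48 (2.35 to 2.63) and 2.35 (2.22 to 2.47). *Igll1* was 1.75-fold and 1.80-fold higher, and *Vpreb2* 2.78-fold and 2.80-fold. *Vpreb3* did not pass, at 1.26-fold and 1.14-fold without the mixed barcodes. The 3 genes *Igll1*, *Vpreb1* and *Vpreb2* were thus higher where *Dntt* was, by nearly the same fold in each library. This is a description, since *Igll1* and *Vpreb1* chose the members and *Vpreb2* reads may be split with *Vpreb1*. The limit of 5 UMIs also asks for a higher level in shallower cells, as the *Dntt* members were, and its part in these folds was not tested. *Blnk*, the adaptor that links the pre-B receptor to its downstream enzymes, was 3.05-fold and 3.13-fold higher. *Ebf1* was 1.61-fold and 1.56-fold higher, *Lef1* 1.78-fold and 2.07-fold, and *Ly6d* 3.10-fold and 2.23-fold. *Gimap4*, a GTPase gene of lymphocytes, went from 5.24 to 110.1 CPM in WT (21.0-fold, 12.4 to 38.0) and from 4.76 to 84.2 in Cko (17.7-fold, 9.91 to 34.4).

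The other genes with the highest folds in *Dntt* members were *Ethe1*, *Gimap6*, *Gpr56*, *Rasgrp2*, *Egfl7*, *Cplx2*, *Bok* and *Tbc1d10c*, at 3.39-fold to 5.58-fold. *Rasgrp2*, an activator of the small GTPase Rap, was at 407 against 106 CPM in WT and 488 against 114 in Cko. Of 8 pro-B stage genes counted 5 were higher and 0 lower. The fold of *Dntt* itself is set by the split, so a list that holds *Dntt* is to that extent not an independent count. *Rag1*, a subunit of the recombinase, had too few UMIs to be counted, and its 61 of 67 WT UMIs and 65 of 70 Cko UMIs were in *Dntt* members. This was 58.4 against 1.97 CPM in WT (29.7-fold, 12.9 to 84.2) and 53.2 against 1.83 in Cko (29.0-fold, 11.8 to 92.4). *Erg*, an early haematopoietic transcription factor, was at 69.9 against 1.97 CPM in WT and 63.8 against 1.46 in Cko. *Kit*, the stem cell factor receptor of early progenitors, had only 18 UMIs in WT members and 13 in Cko, 16 and 8 of them with *Dntt*. Most UMIs of *Rag1*, *Erg* and *Kit* were thus in the *Dntt* members of each library, though how often 1 cell held several of them was not counted.

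The genes lowest in the *Dntt* members against the others were of several kinds. *Nrgn* was at 30.6 CPM with *Dntt* and 214 without in WT (0.143-fold, 0.0969 to 0.204), and at 22.1 and 131 in Cko (0.169-fold). *Fcrla*, an Fc receptor-like protein of B cells, was at 36.4 and 249.85 CPM in WT and at 44.2 and 324 in Cko. *Myl4* was at 128 and 587 CPM in WT and at 72.0 and 453 in Cko, so that this marker was mostly in the members without *Dntt*. *Cd24a*, the heat stable antigen used in staging B cells, was at 0.381 of the other members' level in both libraries. *Cd72*, a receptor that damps B cell receptor signals, was at 0.311 and 0.210, *Blk*, a kinase of the SRC family, at 0.210 and 0.240, *Bach2* at 0.324 and 0.337, *Herpud1* at 0.397 and 0.391 and *Ccnd2* at 0.544 and 0.513. *Rsph1*, *Klhl32*, *Lgr5* and *Ralgps2* completed the lowest folds with *Igkc*, at 0.102 to 0.330. Of 13 large pre-B stage genes 2 were higher, *Vpreb2* among them, and 2 lower, with median folds of 1.08 and 0.955. Of 10 small pre-B and later stage genes 1 was higher and 4 lower. Of 44 G2 and M phase genes 0 differed by 1.5-fold the same way in both libraries, and of 35 S phase genes 1 was higher. *Il7r* was at 0.996-fold and 0.763-fold and did not pass.

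**Figure D3:**
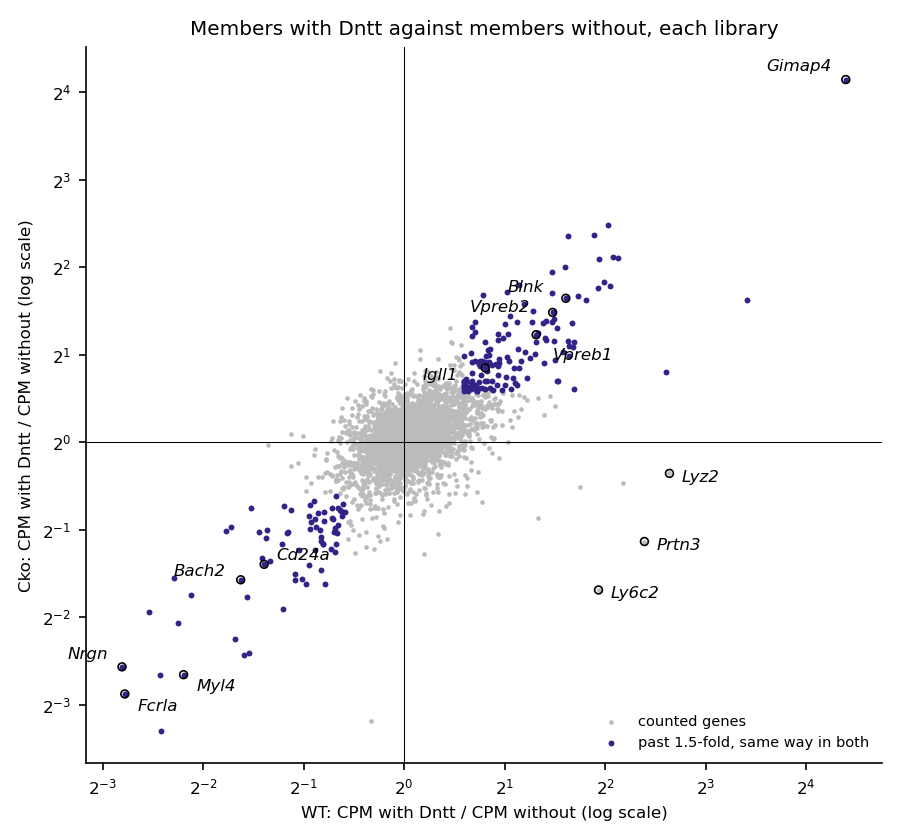
Fold of each counted gene in members with *Dntt* over members without it, WT on the horizontal and Cko on the vertical axis (both log scaled), 1 point per gene. Dark points passed 1.5-fold the same way in both libraries, with *Gimap4* at 21.0 in WT and 17.7 in Cko and *Nrgn* at 0.143 and 0.169. The myeloid genes *Ly6c2*, *Prtn3* and *Lyz2* lie apart, above 1 in WT and below 1 in Cko. Mixed barcodes are kept in the figure, and without them *Lyz2* was at 2.05 in WT and 1.65 in Cko.

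The members also spread over the cell cycle. Of the 94 fixed S, G2 and M phase genes, the score used those listed in both libraries. These were 41 of 42 S phase genes and 50 of 52 G2 and M phase genes. Each cell was given their UMIs per 10000 of its UMIs. The members of both libraries were divided at 149.9 and 208.9 per 10000 into 3 ranges of equal size. These are ranges of a score and not cell types, with 171 WT and 117 Cko members within 10% of a limit. WT members were 28.0%, 36.02% and 36.02% in the lowest, middle and highest range, and Cko members were 40.6%, 29.8% and 29.5%. Cells in the highest range were the shallowest, with median depths of 5722 UMIs in WT and 7644.5 in Cko against 9223 and 10962 in the lowest. In the summed UMIs the ranges ordered members by G2 and M phase genes, at 7145, 12875 and 22934 CPM in WT and 6989, 13846 and 22412 in Cko, and not by S phase genes, at 4793, 4840 and 4452 CPM and at 4470, 3904 and 3164. Of 2473 genes outside the score, 547 (22.1%) differed by 1.5-fold or more the same way in both libraries between the highest and the lowest range, 281 higher (11.4%) and 266 lower (10.8%).

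Several of the genes with the lowest folds, named for that, were at their highest in the lowest range. *Myc* was at 100.2 CPM in the lowest, 44.6 in the middle and 12.4 in the highest range in WT, and at 63.1, 38.9 and 7.88 in Cko. Markers of other cells moved as well. In WT granulocyte progenitor genes were at 1028, 70.8 and 75.2 CPM and monocyte genes at 516, 161 and 147. In Cko they were at 156, 78.6 and 78.8 and at 404, 143 and 172. Of these lists 1 granulocyte progenitor gene and 2 monocyte genes were counted, and all were lower in the highest range. With the mixed barcodes, which are chosen on these genes, left out, 0 of them passed 1.5-fold. Without the mixed barcodes the fold of *Myc* between the highest and lowest range was 0.123 in WT and 0.128 in Cko, against 0.124 and 0.125 with them. *Ccnd2* was at 311, 255 and 68.1 CPM in WT and at 343, 281 and 88.9 in Cko. *Shmt1* was at 0.147 of its lowest-range level in WT and 0.106 in Cko. *Ybx3*, a cold shock domain protein, was at 0.179 and 0.135, and *Srm*, the spermidine synthase gene, picked after its values were seen, at 0.101 and 0.0373. *Cdk4* (0.635 and 0.545) and *Cdk6* (0.635 and 0.514), partners of cyclin D, were lower by less. *Ccnb1*, the mitotic cyclin B1, was outside the score and was 6.43-fold and 7.21-fold higher in the highest range, and *Cdkn2c*, an inhibitor of CDK4 and CDK6, was 5.81-fold and 5.97-fold higher.

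Several B lineage genes were higher in the highest range. *Vpreb3* was at 1230, 1729 and 3196 CPM in WT and at 1377, 1841 and 3199 in Cko. *Ebf1* was 2.06-fold and 1.81-fold higher in the highest than in the lowest range, *Bach2* 3.10-fold and 2.91-fold, *Myl4* 2.88-fold and 2.46-fold, *Cd72* 2.83-fold and 2.40-fold and *Klf2* 3.85-fold and 4.57-fold. *Il7r* was 3.95-fold higher in WT and 2.10-fold in Cko. Of 16 B lineage transcription factors 10 were higher and 0 lower, of 11 pre-B receptor signalling genes 6 were higher and 0 lower (1 lower without the mixed barcodes), and of 8 small pre-B and later stage genes 7 were higher and 0 lower. *Igll1* and *Vpreb1* together had medians over cells of 26.3, 24.4 and 25.6 per 10000 UMIs in WT and 30.6, 26.1 and 27.7 in Cko. As summed levels, the rule genes with *Cd79a* stood at 3608, 3622 and 5104 CPM in WT and at 4302, 3941 and 4940.0 in Cko, with 0 of 3 past 1.5-fold in both. *Dntt* was found in 31.9%, 22.4% and 36.2% of WT members of the 3 ranges and in 41.3%, 29.5% and 28.8% of Cko members, so the 2 libraries gave different orders. Its summed level was at 165 CPM in the lowest, 142 in the middle and 387 in the highest range in WT and at 232, 189 and 339.9 in Cko, highest in the highest range in both.

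**Figure D4:**
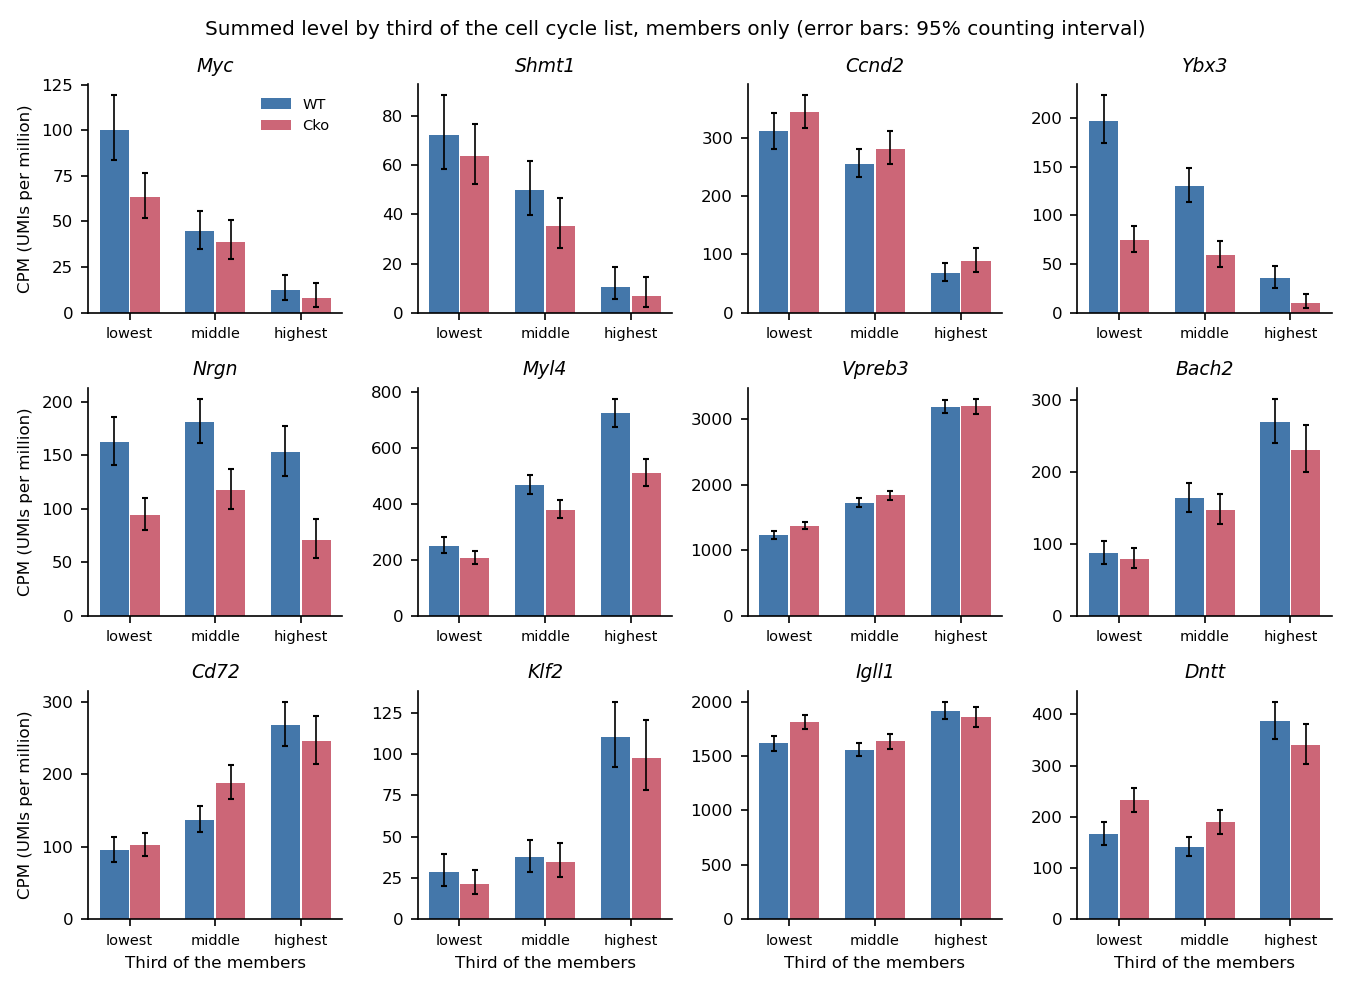
CPM of 12 genes (linear axes from 0) in the lowest, middle and highest range of the cell cycle score in WT and Cko members, with exact 95% Poisson intervals for counting error. *Myc* goes from 100.2 to 12.4 CPM in WT and from 63.1 to 7.88 in Cko, while *Vpreb3* goes from 1230 to 3196 and from 1377 to 3199.

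The comparison of Cko with WT members asked whether early B cells differed in a marrow whose Osterix lineage lacked S1P. Of 4666 genes counted, 241 (5.17%) differed by 1.5-fold or more in CPM, 89 higher in Cko (1.91%) and 152 lower (3.26%). The median ratio over these genes was 0.923 (log2 of -0.12), with more of the Cko UMIs in ribosomal protein genes (median 41.6% of a cell's UMIs against 37.7%). When ratios were divided by that median, 131 genes were higher and 80 lower, so the balance of higher and lower genes depends on the scale. Ratios are given as measured and are to be read against 0.923. No gene list of the B lineage had a summed ratio past 1.5-fold.

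Among the surrogate light chain genes *Vpreb2* stood apart. It was at 49.5 CPM in WT and 99.1 in Cko (2.001, 1.68 to 2.38), and was found in 27.1% and 45.5% of members (14.7% and 22.2% at 3000 UMIs) where neutrophil-signature cells had it in at most 0.231%. Its close copy *Vpreb1* was at 1225 and 1387 CPM (1.13, 1.09 to 1.18), *Igll1* at 1674 and 1759.7 (1.05, 1.02 to 1.09) and *Vpreb3* at 0.986. *Dntt* was at 217 and 241 CPM (1.11, 1.01 to 1.22). Of 10 pro-B stage genes counted 0 passed 1.5-fold, with a summed ratio of 1.01 (0.965 to 1.06), and of 13 large pre-B stage genes 2 were higher and 2 lower. The signalling chain gene *Cd79b* was at 468 and 507 CPM. Of 17 pre-B receptor signalling genes and 11 surface genes counted, 0 passed 1.5-fold. Of 12 small pre-B and later stage genes 1 was higher, *Cd74*, at 32.5 and 54.4 CPM, and 4 were higher when divided by the median ratio, with *Igkc*, *H2-Eb1* and *Btg2*.

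Cytokine and cycle genes gave a few single differences. *Il7r* was at 108 CPM in both libraries. *Socs2*, a feedback inhibitor of cytokine signalling, was at 43.7 and 68.0 CPM (1.56, 1.28 to 1.89) and was the 1 gene of 9 in the interleukin-7 receptor pathway list to pass, while *Pim1*, a kinase induced by that pathway, was at 48.3 and 32.9 CPM (0.680), short of the limit. Both *Myc*, at 53.2 and 42.2 CPM, and *Ccnd2*, at 221 and 264, lay within 1.5-fold. *Cdk6* was at 81.3 and 50.8 CPM (0.625, 0.522 to 0.747). The S phase genes summed to 4718 and 3978 CPM (0.843, 0.826 to 0.861), with 2 of 41 lower by 1.5-fold, *Pold3* (0.620) and *Blm* (0.608). The G2 and M phase genes summed to 0.928 (0.917 to 0.940), close to the median of all genes, with *Ckap2l* (0.642) the 1 of 50 lower. *Nrgn* was at 168 and 97.1 CPM (0.579, 0.510 to 0.657), *Ybx3* at 125 and 54.9 (0.438, 0.372 to 0.515) and *Hist1h2ae* at 32.9 and 57.9 (1.76, 1.41 to 2.19). *Ybx3* was lower in Cko in other cells too, at 98.3 and 25.1 CPM in low cells and 33.0 and 11.7 in neutrophil-signature cells. None of 19 B lineage transcription factors passed 1.5-fold; *Lef1* was at 0.737, *Id3* at 0.728, *Ikzf1* at 0.782 and *Bach2* at 0.812.

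Several genes with the highest and lowest ratios differed in other cells too. *Snhg3*, a host gene of small nucleolar RNAs, was at 169.6 CPM in WT members and 18.7 in Cko, and at 92.3 and 3.86 in low cells. *Apobec3*, a restriction factor against retroviruses, was at 135 and 31.4 CPM in members and at 243 and 29.0 in low cells. *Cap1*, an actin regulator, was at 13.2 and 69.3 CPM in members, 24.1 and 143 in low cells and 31.1 and 200.3 in neutrophil-signature cells. All 3 genes thus differed in the same direction in the low cells. *Tsc22d3* (2.87) and *Gdpd3* (2.73) were also higher in Cko and *Igtp* (0.249) lower. *Rps10-ps1*, *Rps18-ps3*, *Gm10036* and *Rpl10-ps3* were at 2.65 to 3.40, but these names belong to ribosomal protein copies whose reads may be split with their parents, and they are uncertain.

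*Rnase12*, of the ribonuclease A family, had only 3 UMIs in WT and 2 in Cko low cells, too few to compare there. It was at 16.6 CPM in WT members and 68.0 in Cko (4.10, 3.13 to 5.43), but at 2.01 and 1.93 in low cells and 0.881 and 0.400 in neutrophil-signature cells. Its UMIs lay in 44 WT and 73 Cko members, 9.11% and 20.7% of them (4.76% and 13.6% at 3000 UMIs). Within members it followed *Dntt*. In members with *Dntt* it was at 59.4 CPM in WT and 208 in Cko, and in those without at 1.97 and 5.12, which is 30.2-fold (13.1 to 85.5) and 40.7-fold (23.8 to 75.5). Most of its UMIs, 62 of 68 in WT and 255 of 269 in Cko, were thus in the *Dntt* members.

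Genes of other marrow cells made up the remaining extremes. All 10 erythroid markers summed to 3108 CPM in WT and 909 in Cko (0.292), with 7 of 8 counted lower, *Hba-a1*, *Hba-a2*, *Hbb-bt* and *Car1* among the 10 lowest ratios of all genes. In neutrophil-signature cells the same list went from 38655 to 5777 CPM. Neutrophil markers summed to 1696 and 2004 CPM (1.18), with 5 of 8 higher. Stefin genes, which are expressed in neutrophils, summed to 33.2 and 115 CPM (3.45, 2.84 to 4.21) in members. *Stfa1* was at 4.64 and 27.3 CPM in members and 1087 and 2437 in neutrophil-signature cells, and *BC100530* at 10.7 and 46.3 against 1813 and 5589.9. Single cells weighed much in Cko members, where 1 cell held 50 of 108 *Stfa1* UMIs and 1 cell 57 of 183 *BC100530* UMIs. The highest WT cells held 6 of 19 and 8 of 44. *Stfa1* was found in 13 WT and 52 Cko members and *BC100530* in 27 and 105. Granulocyte progenitor markers were lower in Cko members, 4 of 4 counted, with *Elane* at 154 and 25.03 CPM (803 and 994 in low cells) and *Nkg7*, of the T and NK list, at 24.6 and 6.83 (76.9 and 63.7 in low cells). Of the 630 *Elane* UMIs in WT members 521 were in the 15 mixed barcodes. Without the mixed barcodes *Elane* was at 0.766 and the progenitor list at 0.933, so that these calls rested on 15 WT barcodes. The part of free RNA in these genes was not tested.

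Genes tied to the proteins that S1P cuts were looked at as lists. The SREBP target list, mostly genes of cholesterol and fatty acid synthesis, also holds *Scap* and *Srebf2* of the pathway itself. It summed to 179 CPM in WT members and 119.8 in Cko (0.670, 0.596 to 0.753). Only 8 of the 28 were listed in both libraries and 5 were counted, of which 2 were lower by 1.5-fold. *Fdps*, farnesyl diphosphate synthase, was at 55.9 and 26.8 CPM (0.480, 0.377 to 0.606), and *Idi1*, isopentenyl diphosphate isomerase, at 26.6 and 15.7 (0.589, 0.424 to 0.812). The list was lower in the other cells as well, at 167 and 89.8 CPM in low cells and 217 and 94.8 in neutrophil-signature cells. A further 7 of its genes were listed in WT alone, among them *Hmgcs1*, *Sqle*, *Fdft1*, *Msmo1* and *Srebf2* with 45 to 101 UMIs in members, and 3 in Cko alone with 46 to 75 (*Acat2*, *Fasn*, *Scap*). A gene was listed only when some cell of the library held 4 or more UMIs of it, so absence from a table is no level of 0. The endoplasmic reticulum chaperone list holds targets of ATF6 but also *Atf6* and *Mbtps2*, so it is not a list of targets alone. It summed to 1976 and 1898 CPM (0.960, or 1.04 when divided by the median ratio), with 0 of 19 past 1.5-fold. *Herpud1*, of the degradation of misfolded proteins, came nearest at 122 and 182 CPM (1.48), and passed when divided by the median ratio (1.61). *Mbtps1* itself (chr8:119508156-119558735) was at 40.3 and 37.4 CPM (0.929, 0.739 to 1.17), at the median of all genes.

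**Figure D5:**
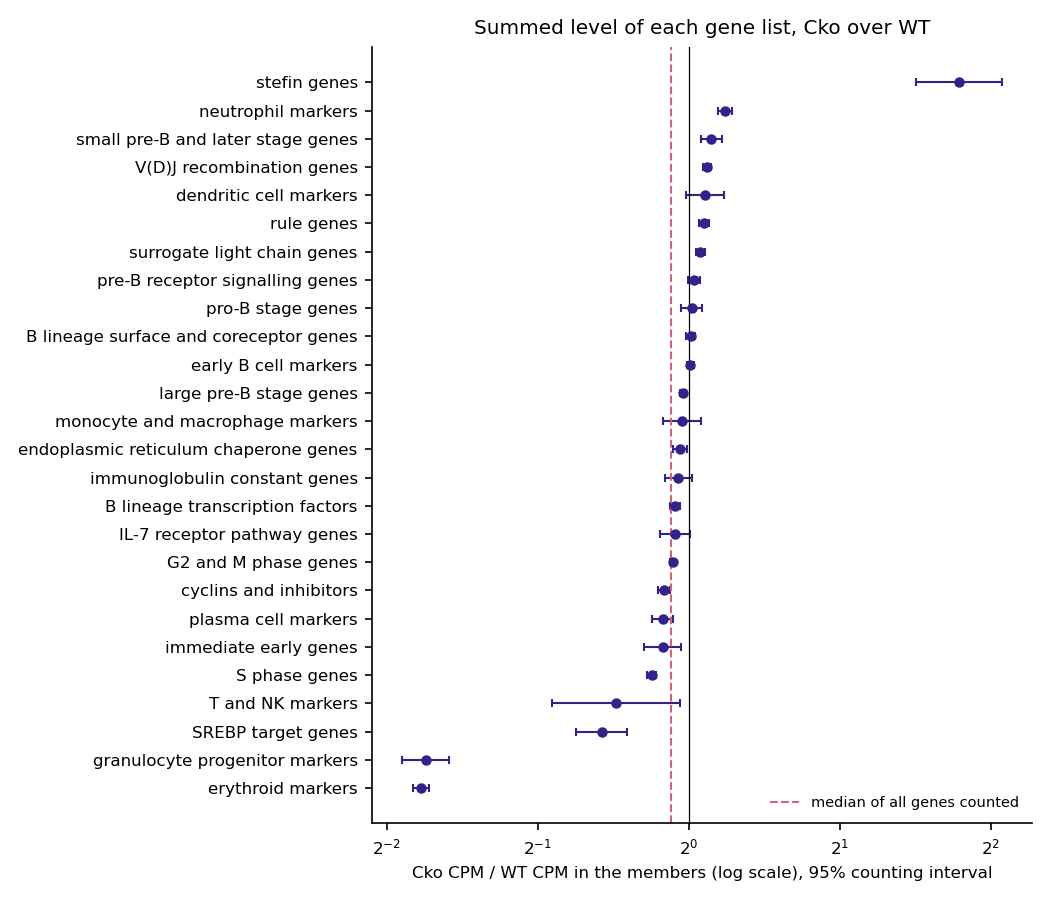
Cko to WT ratio of summed CPM in members for each gene list with a gene listed in both libraries (log axis; the rule genes are *Igll1*, *Vpreb1* and *Cd79a*), with exact 95% intervals for counting error, and the median ratio of all 4666 genes as a dashed line at 0.923. Erythroid (0.292) and granulocyte progenitor (0.299) markers lie far below the line and stefin genes (3.45) far above it, while the lists of the B lineage lie between 0.939 and 1.11.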

How the data were processed

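Single-cell 3′ RNA libraries of limb bone marrow were made from 1 WT and 1 Cko mouse. The authors deposited 1 table of UMI counts per library, whole numbers per gene and barcode with no normalization; the submitters' processing notes name GRCm38 and Cell Ranger, whose version is not given in the sources used here. A totals line and a sum column were left out, and 16 WT and 8 Cko barcodes with under 200 genes were dropped. Members met the rule given in the text, and their counts were summed per library and divided by the total (CPM). Ratios have exact conditional intervals, levels exact Poisson intervals and shares exact Clopper-Pearson intervals, all at 95% and for counting error only. A gene was counted with 100 or more UMIs in the comparison, and it passed at 1.5-fold, in both libraries for contrasts within a library. With 1 library per genotype no test was possible and no p-value was computed.

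Genes were named from 27 lists, from the 10 highest and 10 lowest folds of each comparison, and *Mbtps1*; genes outside this are said to be picked after their values were seen, and a few are not reported here. The members and the lists were chosen with earlier results of these data known. Shares of cells with a UMI were also computed after thinning to 3000 UMIs. Neutrophil-signature cells (the 6 neutrophil transcripts at 5% or more, no *Cd79a*) were the background. Scrublet (scanpy 1.11.5) was used to call doublets, which were kept unless stated. Leaving out mixed barcodes was an alternative chosen after seeing the data. Sequences and motif matches came from RefSeq (GRCm38.p6) and gene positions from GENCODE vM21. Python 3.11.15, numpy 2.4.6, pandas 2.3.3, scipy 1.17.1 and matplotlib 3.10.9 were used, and the calculations were tested on simulated data.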

Additional observations from a re-analysis of the deposited data

Results flagged for a closer look

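A few genes passed 1.5-fold in opposite directions in the 2 libraries, and the difference between the libraries was not tested. In members with *Dntt* against members without, *Ly6c2* was at 3.82-fold in WT and 0.311-fold in Cko, *Prtn3* at 5.24-fold and 0.456-fold, *Mpo* at 2.52-fold and 0.548-fold and *Chil3* at 1.71-fold and 0.622-fold. All 4 are genes of granulocyte progenitors or monocytes, and 8 of the 145 WT *Dntt* members but 1 of the 120 Cko ones were mixed barcodes. Without mixed barcodes *Ly6c2* was at 0.804 and 1.05, *Prtn3* at 1.20 and 0.951, *Mpo* at 1.02 and 1.005 and *Chil3* at 1.19 and 0.723. None of these 4 then passed 1.5-fold either way. *Lyz2*, a further myeloid gene, was above 1 in WT and below 1 in Cko with the mixed barcodes. Without them it was at 2.05 (1.60 to 2.62) and 1.65 (1.36 to 1.99), past 1.5-fold the same way in both libraries. *Gimap4* was at 21.1 and 16.6 in the same cells and *Vpreb1* at 2.55 and 2.29.

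Among members against low cells, *Car2*, a carbonic anhydrase of red cell precursors among others, was at 0.459-fold in WT and 1.99-fold in Cko. Between the highest and lowest range of the cell cycle score, *Cd74* was at 1.57-fold in WT and 0.620-fold in Cko. *S100a8*, a calcium-binding protein gene of neutrophils, was at 0.439-fold and 1.51-fold. Without mixed barcodes *S100a8* was at 0.730 and 0.922, so it passed in neither library and was below 1 in both. *Cd74* was then at 1.49 and 0.658, past 1.5-fold in Cko alone, and *Car2* at 0.423 and 1.80, still opposite.

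Some genes of the fixed lists had 100 or more UMIs in the members of 1 library and were not listed in the other, so no ratio was formed. In Cko alone these were *Xist* (4686 UMIs), *Foxo1*, a factor that drives RAG expression (119 UMIs), the mitotic kinase *Ttk* (117 UMIs), and *Bst1*, a surface marker of pro-B cells (100 UMIs). In WT alone they were the Y-linked *Eif2s3y* (223 UMIs) and *Ddx3y* (101 UMIs), *Cd22*, an inhibitory coreceptor (119 UMIs), the mitotic kinase *Bub1* (116 UMIs), and *Srebf2*, which encodes SREBP2 (101 UMIs).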

How the results depend on the processing

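The Cko to WT ratio of the member share was 1.25 over all cells and 0.717 over cells with hemoglobin under 1%, the opposite direction, and 1.01 over *Cd79a* cells. Under the other alternatives it lay between 1.18 and 1.33. With 300 or more UMIs per gene the genes past 1.5-fold were 112 for Cko against WT, 279 for members against low cells and 76 for *Dntt*, where they had been 241, 605 and 205, since fewer genes were counted. With 20 or more UMIs there were 457 for Cko against WT. Thinned to 3000 UMIs, there were 280 for members against low cells and 88 for *Dntt*. Against comparison cells with 1 or more *Cd79a* UMIs the first had 122 higher and 310 lower. Lists with a summed Cko to WT ratio past 1.5-fold numbered 3, and 5 either with a limit of 3 UMIs on *Igll1* plus *Vpreb1* or with hemoglobin under 0.3%. B lineage transcription factors and large pre-B stage genes moved from 0.939 and 0.972 to 1.002 and 1.005 with hemoglobin under 0.3%, and to 1.02 and 1.05 when divided by the median ratio, as G2 and M phase genes did to 1.01 and chaperone genes to 1.04. T and NK markers moved from 0.717 to 1.4997 without the mixed barcodes. The cause of these changes was not tested where it is not given. Of 41 alternatives to the 7 summary results 31 changed little, and of 488 for the 61 single genes and lists 385 did and 7 turned direction. No paired analysis was possible because each genotype had 1 library. Depth limits *Rag1*, *Erg*, *Kit* and other genes under 100 UMIs, whose folds rest on few molecules, and 1 mouse per genotype limits every Cko to WT ratio.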

Other observations

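The cell cycle ranges of the members also separated other genes, picked here because they had the highest and lowest folds. Among those lower in the highest range, *Gnl3*, nucleostemin, was at 220 CPM in the lowest and 49.6 in the highest range in WT and at 176 and 28.1 in Cko. *Mybbp1a*, a nucleolar protein, was at 0.142 of its lowest-range level in WT and 0.224 in Cko, *Mettl1*, a tRNA methyltransferase, at 0.173 and 0.195, *Apex1*, an endonuclease of base excision repair, at 0.200 and 0.225, and the noncoding *Snhg4* and *Dancr* at 0.172 to 0.212. Among those higher, *Tuba1c*, a tubulin, was at 35.0 and 321 CPM in WT and 41.7 and 377 in Cko, a fold of 9.19 and 9.05. *Prc1*, which bundles the spindle midzone, was 6.64-fold and 5.74-fold higher, *Cdc25b*, the phosphatase that activates CDK1, 5.85-fold and 7.05-fold, and *Arl6ip1* 5.15-fold and 5.48-fold. The CDK inhibitor genes *Cdkn2d* (5.04-fold and 5.38-fold) and *Cdkn3* (5.79-fold and 7.32-fold) were higher beside *Cdkn2c*.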
